A study of Mus musculus with 24 samples.

Results

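The genes described here supply and turn over creatine and move calcium across the sarcoplasmic or endoplasmic reticulum, the 2 systems best known as routes of heat production that do not need UCP1, the uncoupling protein of brown fat. They were taken by gene name and are 9 of the 54532 genes in the deposited table: Gatm, Gamt, Slc6a8, Ckb, Ckmt1, Ckmt2, Alpl, Atp2a2 and Ryr2. All 9 symbols matched a single protein-coding gene. Each gene was followed through 24 RNA sequencing libraries of white fat from C57BL6 mice that had received an adeno-associated virus (AAV) and had eaten a high-fat diet (HFD) or normal chow for 18 weeks. The libraries form 8 groups of 3, given here as depot, vector and diet. They are inguinal fat (iWAT) with AAV-irisin on HFD, with AAV-GFP on HFD, with AAV-irisin on chow and with AAV-GFP on chow, and epididymal fat (eWAT) in the same 4 combinations. Every mouse had therefore received a virus, and the GFP vector is the control for irisin, a peptide cut from the membrane protein FNDC5 and known as a hormone released by exercising muscle. The sources used here do not give the promoter or dose of the vectors, nor the age of the mice. The labels do not say that the 3 libraries of a group came from 3 mice, so the p-values measure only the spread between libraries.

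In brown and beige fat, creatine is phosphorylated in mitochondria and its phosphate is then removed again, so that respiration runs without net work. GATM and GAMT make creatine from arginine, glycine and a methyl group, SLC6A8 brings it in from blood, creatine kinases add the phosphate and the phosphatase encoded by Alpl has been described in mouse fat as the enzyme that removes it. In the calcium cycle the pump SERCA2, encoded by Atp2a2, uses ATP to fill the reticulum and the channel RYR2 lets calcium out again. Macrophages and muscle fibres also use parts of both systems, and in bulk tissue fewer cells of a type and less RNA per cell cannot be told apart.

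The data show 4 patterns. On HFD the creatine kinase gene Ckb and the transporter gene Slc6a8 rose in eWAT, by 1.40 and 1.54 on the log2 scale with irisin and by 2.18 and 2.42 with GFP, and Ckb fell in iWAT with either vector. Summed macrophage markers were above those of every eWAT chow library in 5 of 6 eWAT HFD libraries. With a macrophage score as a covariate the 4 eWAT values were -0.08 and -0.35 with irisin and 0.14 and -0.17 with GFP, and none was called. Over all genes that fit called 291 of 16274 with irisin and 4 with GFP, against 2831 and 4310 without the score. Both irisin calls in eWAT were also lost without 4 libraries rich in other tissues, none of which is an eWAT irisin library. The 2 changes stayed at 1.40 and 1.54 there, and that fit called 2925 of 15866 genes. In a fit of only the groups compared both calls were lost too. That last fit called 1393 of 14867 genes, against 2831 in the reported fit. Gatm fell with HFD in iWAT irisin fat and rose in eWAT GFP fat. Both calls were lost with the macrophage score, and each in 4 of 12 fits with 1 library left out. Its change in eWAT irisin fat, 1.56, was near the 1.76 with GFP but missed the threshold. Ryr2 had 9.99 to 107 times as many reads on HFD as on chow in the 4 combinations of depot and vector, from very low levels. Atp2a2, the most evenly expressed member, passed the test in no comparison, and no member was called between irisin and GFP.

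Each comparison was fitted across all genes with limma on log2(FPKM + 0.5), where FPKM is fragments counted per kilobase of transcript, scaled to the size of the library, and a gene was tested if it had at least 0.5 FPKM in at least 3 libraries of the fit. A gene was called at a Benjamini-Hochberg adjusted p under 0.05 over all genes tested. Fold changes on this scale understate the change of low genes. Gatm, Gamt, Slc6a8, Ckb, Alpl and Atp2a2 were tested in either depot, Ckmt1 in eWAT and in the fit of both depots, and Ckmt2 and Ryr2 in none of these fits. Ckmt1 met the filter through its eWAT chow libraries alone, so its difference between depots on chow was in part fixed by the filter. On HFD against chow, 2 of 6 members tested were called in iWAT with irisin, where 9.01% of all genes were called, and 1 of 6 in iWAT with GFP, where 2.37% were. In eWAT the counts were 2 of 7 with irisin beside 17.4% of all genes, and 3 of 7 with GFP beside 26.5%. With members this few, these shares are given as a description.

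Some libraries held RNA of other tissues. Adipoq, the adipocyte gene for adiponectin, had 615 to 2284 FPKM in the 24 libraries, so fat cells were present in all of them. The summed level of 22 skeletal muscle markers was 138, 389 and 5061 FPKM in iWAT irisin chow libraries 1, 2 and 3 and between 29.6 and 118 FPKM in the other 21. The muscle creatine kinase gene Ckm had 4.83, 17.2 and 279 FPKM in those iWAT irisin chow libraries and at most 1.15 FPKM elsewhere, where it was at 0 in 16 libraries. Of the 22 muscle markers, 0 to 2 were at 0 in each iWAT irisin chow library and 3 to 7 in each of the others. B cell markers summed to 435 FPKM in iWAT GFP HFD library 1 and 127 FPKM in eWAT GFP chow library 1, and markers of epididymal epithelium summed to 4074 FPKM in eWAT GFP HFD library 3 and to at most 0.191 FPKM elsewhere. These 3 libraries and iWAT irisin chow library 3 are the 4 mixed libraries that some fits below leave out. Neither eWAT irisin group holds any of them, so the eWAT irisin diet comparison itself loses no library in those fits. The 9 macrophage markers summed to 1070 to 3368 FPKM in eWAT irisin HFD, 3487 to 4774 in eWAT GFP HFD, 786 to 904 in eWAT irisin chow and 923 to 1298 in eWAT GFP chow, and none of them was at 0 in any library. In iWAT the same sum was 231 to 655 FPKM in irisin HFD, 416 to 784 in GFP HFD, 1176 to 1703 in irisin chow and 206 to 1380 in GFP chow. Recovered reads numbered 14145644 to 19726771 per library. Fndc5 itself had 0.392 to 4.94 FPKM in the irisin libraries against 0.131 to 3.22 FPKM in the GFP libraries. In matched groups it did not overlap in iWAT on HFD (0.392 to 3.91 FPKM with irisin, 0.163 to 0.258 with GFP) or in eWAT on chow (0.456 to 1.40 with irisin, 0.131 to 0.454 with GFP). It overlapped in iWAT on chow (0.621 to 2.93 with irisin, 0.157 to 0.735 with GFP) and in eWAT on HFD (1.04 to 4.94 with irisin, 1.44 to 3.22 with GFP).

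**Figure D1:**
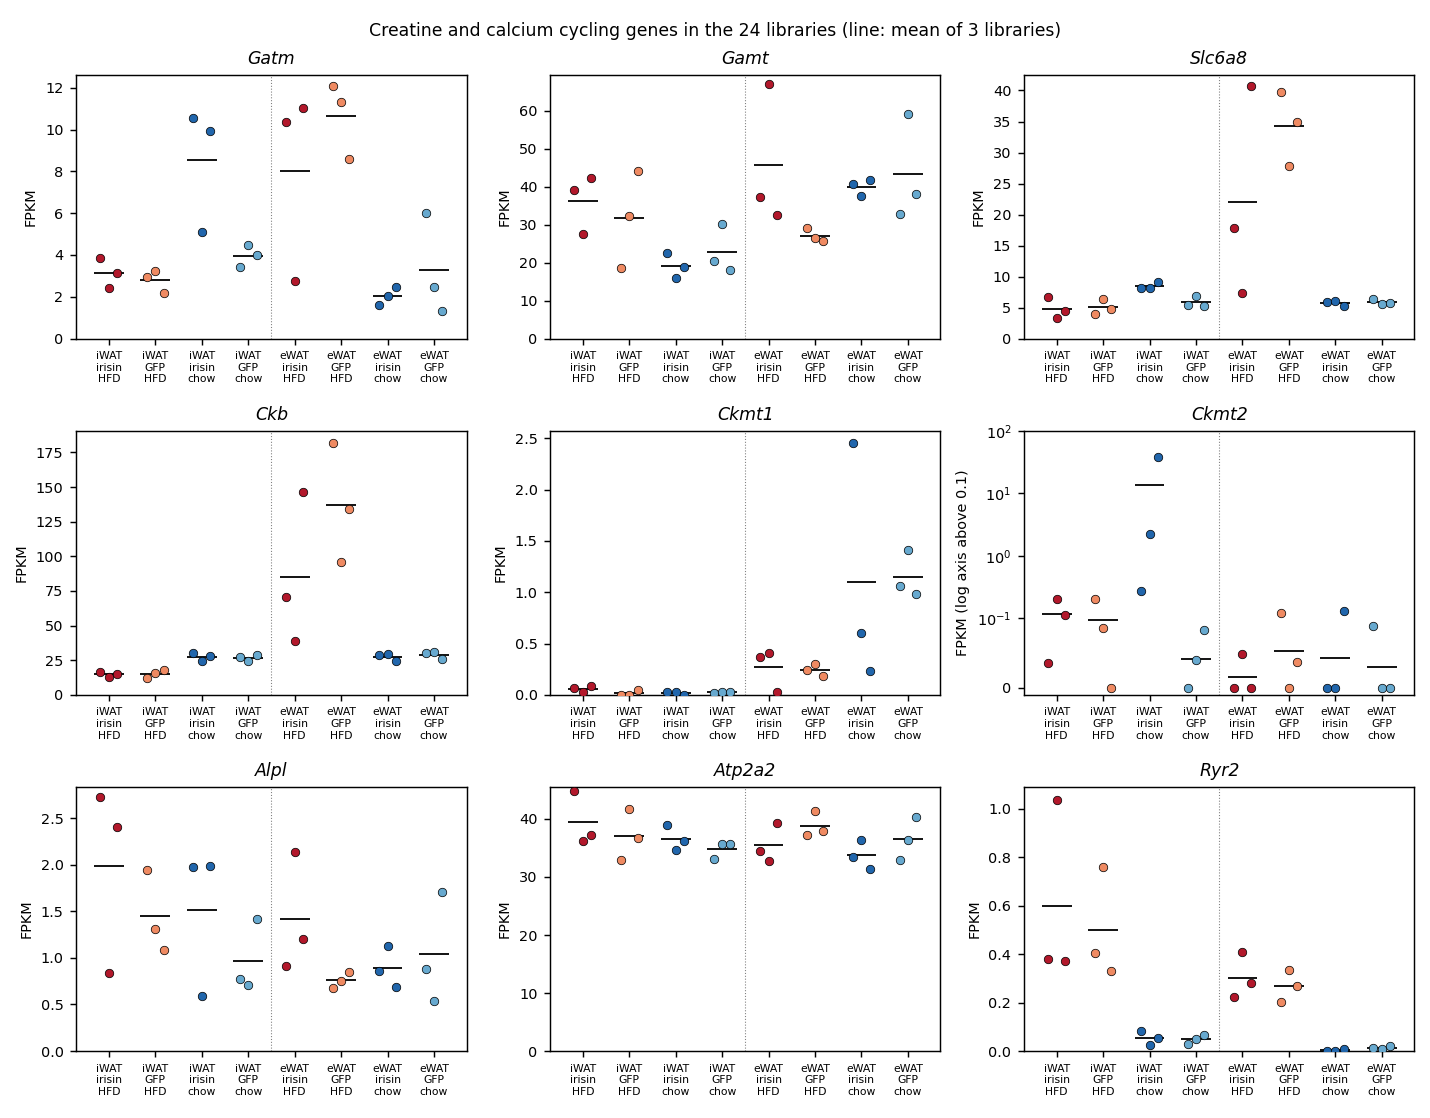
FPKM of each of the 9 genes (y axis) in the 8 groups (x axis), with 1 point per library, a line at the mean of 3 libraries, iWAT left and eWAT right of the dotted line; red and orange are HFD, dark and light blue chow. Ckb and Slc6a8 stand highest in eWAT on HFD, Ryr2 is near 0 on chow, and Ckmt2 (log axis above 0.1 FPKM) is above 1 FPKM only in 2 iWAT irisin chow libraries.

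Creatine synthesis starts with Gatm, which encodes glycine amidinotransferase, the mitochondrial enzyme that makes guanidinoacetate from arginine and glycine. The gene lies at chr2:122594467-122611303 on the minus strand. In eWAT on HFD it had 10.3, 2.75 and 11.01 FPKM with irisin and 12.1, 11.3 and 8.57 FPKM with GFP. On chow the eWAT values were 1.60, 2.05 and 2.45 FPKM with irisin and 6.02, 2.45 and 1.32 FPKM with GFP. The HFD and chow libraries of eWAT did not overlap within a vector, and irisin HFD library 2 was the low one of its group. Gatm rose with HFD in eWAT GFP fat by 1.76 ± 0.51 (log2, SE; limma adjusted p = 0.0268), and the call was lost without GFP HFD library 1 or 2 or GFP chow library 2 or 3. With 1 library left out the change ranged from 1.33 to 2.26. The call was also lost with no filter on low values (adjusted p = 0.0601) and with the macrophage score as a covariate (-0.81, adjusted p = 0.703). With that score 4 of 16274 genes were called in this comparison, against 4310 in the reported fit. In eWAT irisin fat the change of 1.56 ± 0.51 missed the threshold (limma adjusted p = 0.0574), and it passed without irisin HFD library 2, GFP chow library 1 or GFP chow library 3, and without the 4 mixed libraries (adjusted p = 0.0417).

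In iWAT Gatm had 3.84, 2.40 and 3.16 FPKM on HFD and 10.5, 5.10 and 9.94 FPKM on chow with irisin. With GFP it had 2.97, 3.22 and 2.20 FPKM on HFD and 3.40, 4.47 and 3.997 FPKM on chow. The iWAT irisin chow libraries were above every other iWAT library, while the remaining 3 groups lay close together. Markers of other tissues moved with them. Besides the muscle markers, the 10 nerve and Schwann cell markers summed to 180, 75.5 and 164 FPKM in iWAT irisin chow libraries 1, 2 and 3, in the order of Gatm in that group. The nerve sum was 38.9 to 72.3 FPKM in iWAT GFP chow, 19.7 to 46.0 in iWAT irisin HFD and 19.8 to 27.1 in iWAT GFP HFD, and its part in the Gatm levels was not tested. Gatm fell with HFD in iWAT irisin fat by 1.27 ± 0.26 (SE; limma adjusted p = 0.0172), and this call was lost without irisin HFD library 2 or 3 or irisin chow library 1 or 3, where the adjusted p reached 0.0719. It was also lost without the 4 mixed libraries (-1.13, adjusted p = 0.0563), with the muscle score as a covariate (-1.09, adjusted p = 0.449) and with the macrophage score (-1.16, adjusted p = 0.0611). The muscle score left 0 of 16125 genes called in this comparison and the macrophage score 903, against 1453 in the reported fit. In iWAT GFP fat the diet change was -0.44 and was not called. Irisin chow exceeded GFP chow by 0.96 ± 0.26 in iWAT with an unadjusted p of 0.00365 and an adjusted p of 0.919, higher in 3 of 3 libraries. The vector by diet difference in iWAT was -0.83 ± 0.37 (limma adjusted p = 0.688). Within iWAT irisin chow the muscle sums were 138, 389 and 5061 FPKM in libraries 1, 2 and 3. Gatm had 10.5, 5.10 and 9.94 FPKM in the same order, and a link between these levels was not tested.

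Gamt encodes guanidinoacetate N-methyltransferase, which adds the methyl group that completes creatine. It lies at chr10:80258151-80261012 on the minus strand and was, with Ckb and Atp2a2, among the 3 highest members by median FPKM (32.3 over all libraries). Its values were 39.3, 27.6 and 42.3 FPKM in iWAT irisin HFD, 18.7, 32.2 and 44.1 in iWAT GFP HFD, 22.6, 15.9 and 18.9 in iWAT irisin chow and 20.49, 30.2 and 18.0 in iWAT GFP chow. In eWAT they were 37.3, 67.01 and 32.5 FPKM in irisin HFD, 29.1, 26.5 and 25.6 in GFP HFD, 40.8, 37.7 and 41.7 in irisin chow and 32.8, 59.1 and 38.1 in GFP chow. The eWAT GFP HFD libraries were the lowest of the depot and did not overlap with the irisin HFD or the chow libraries. None of the 4 diet comparisons called Gamt. The values were 0.90 ± 0.30 in iWAT irisin (adjusted p = 0.0878), 0.41 in iWAT GFP, 0.11 in eWAT irisin and -0.62 ± 0.26 in eWAT GFP (adjusted p = 0.09997). The first passed without iWAT GFP HFD library 1 (adjusted p = 0.0302), and the last without eWAT irisin HFD library 2 (adjusted p = 0.0255). The first also passed in a fit of only the groups compared (adjusted p = 0.0313) and the last with the muscle score (-0.75, adjusted p = 0.0327), while the last was 0.76 with the macrophage score (adjusted p = 0.512). Irisin exceeded GFP in eWAT on HFD by 0.67 ± 0.26, with an unadjusted p of 0.0259 and an adjusted p of 0.533. On chow Gamt was lower in iWAT than in eWAT, by -1.06 ± 0.30 with irisin (limma adjusted p = 0.0481) and by -0.89 ± 0.30 with GFP (adjusted p = 0.108), and the depots did not overlap in 3 of 3 libraries with either vector. The irisin call held in 9 of 24 fits with 1 library left out. It was lost without any of the 3 iWAT irisin chow, the 3 eWAT irisin chow or the 3 eWAT GFP HFD libraries, and without iWAT irisin HFD 1 or 3, iWAT GFP HFD 2, iWAT GFP chow 1, eWAT irisin HFD 1 or eWAT GFP chow 3. It was also lost with no filter, the replicate block, the read-based fit, the 4 mixed libraries left out or either score as a covariate, with values between -1.08 and -0.94 and adjusted p between 0.0552 and 0.759. The muscle score left 148 of 17687 genes called in this comparison, against 765 in the reported fit.

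Creatine uptake runs through Slc6a8, the gene of the sodium- and chloride-dependent creatine transporter, at chrX:73673150-73682502 on the plus strand. In eWAT on HFD Slc6a8 had 17.9, 7.40 and 40.7 FPKM with irisin and 39.8, 27.9 and 35.0 FPKM with GFP. On chow it had 5.93, 6.13 and 5.25 FPKM with irisin and 6.32, 5.63 and 5.80 FPKM with GFP. Each eWAT HFD library was above each eWAT chow library, and irisin HFD library 2 was only just above them. The rise with HFD was 1.54 ± 0.44 in eWAT irisin fat, or 2.90-fold (limma adjusted p = 0.0354), and the call was lost without irisin HFD library 1 or 3 or any irisin chow library, with values from 0.95 to 2.14, and without the 4 mixed libraries (1.54, adjusted p = 0.0562). It was also lost with no filter (adjusted p = 0.0762), with only the groups compared (adjusted p = 0.114) and with the muscle score (adjusted p = 0.0509). It was 2.42 ± 0.44 in eWAT GFP fat, a 5.37-fold change (limma adjusted p = 0.00324), and was called in 12 of 12 fits with 1 library left out. With the macrophage score as a covariate neither was called, at -0.35 with irisin (adjusted p = 0.648) and -0.17 with GFP (adjusted p = 0.908). Over all genes that fit called 291 of 16274 with irisin and 4 with GFP. The difference of the 2 diet effects in eWAT was -0.89 ± 0.62 (limma adjusted p = 0.908), so a weaker rise under irisin was not shown.

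In iWAT Slc6a8 had 6.79, 3.27 and 4.42 FPKM in irisin HFD and 3.99, 6.36 and 4.82 FPKM in GFP HFD. On chow the values were 8.21, 8.16 and 9.11 FPKM with irisin and 5.38, 6.90 and 5.25 FPKM with GFP. With irisin the diets did not overlap, and with GFP they did. The change with HFD was -0.81 ± 0.24 in irisin fat (limma adjusted p = 0.0560) and -0.20 in GFP fat, and neither was called. The irisin change passed without iWAT GFP HFD library 1 or irisin HFD library 1 (lowest adjusted p = 0.0213), and with upper quartile scaling (adjusted p = 0.0479).

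Ckb encodes the cytosolic brain-type creatine kinase, the kinase that brown and beige fat of mice is known to use in creatine cycling. It lies at chr12:111669361-111672338 on the minus strand. It was the highest creatine kinase gene by FPKM in 23 of 24 libraries, all but iWAT irisin chow library 3, and its levels spanned 15.1-fold, from 12.1 FPKM in an iWAT GFP HFD library to 182 FPKM in an eWAT GFP HFD library. In eWAT on HFD Ckb had 70.4, 38.5 and 147 FPKM with irisin and 182, 95.7 and 134 FPKM with GFP. In eWAT on chow it had 28.8, 29.4 and 24.7 FPKM with irisin and 30.3, 30.6 and 26.0 FPKM with GFP. Every eWAT HFD library was above every eWAT chow library, and the spread within the HFD groups was wider than within the chow groups (SD 55.5 and 43.3 FPKM for irisin and GFP on HFD, 2.56 and 2.59 FPKM on chow, n = 3 each). The rise with HFD was 1.40 ± 0.39 in eWAT irisin fat, 2.64-fold (limma adjusted p = 0.0318), and was lost without irisin HFD library 1 or 3 or any irisin chow library, with values from 0.91 to 1.86, and without the 4 mixed libraries (1.40, adjusted p = 0.0517). It was also lost with no filter (adjusted p = 0.0683) and with only the groups compared (adjusted p = 0.0909). It was 2.18 ± 0.39 in eWAT GFP fat, 4.53-fold (limma adjusted p = 0.00299), and was called in 12 of 12 fits with 1 library left out. With the macrophage score as a covariate neither was called, at -0.08 with irisin (adjusted p = 0.934) and 0.14 with GFP (adjusted p = 0.936). Over all genes that fit called 291 of 16274 with irisin and 4 with GFP. The macrophage sums were 3487 to 4774 FPKM in eWAT GFP HFD against 923 to 1298 FPKM in eWAT GFP chow. On HFD irisin was lower than GFP by -0.85 ± 0.39 in eWAT, with an unadjusted p of 0.0512 and an adjusted p of 0.533, and their libraries overlapped.

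In iWAT Ckb moved the other way. It had 16.6, 12.7 and 15.1 FPKM in irisin HFD and 12.1, 16.0 and 17.9 FPKM in GFP HFD, against 30.0, 24.6 and 28.4 FPKM in irisin chow and 27.5, 24.4 and 28.6 FPKM in GFP chow. The HFD and chow libraries did not overlap with either vector. Ckb fell with HFD by 0.88 ± 0.16 in irisin fat (limma adjusted p = 0.0111) and by 0.80 ± 0.16 in GFP fat (limma adjusted p = 0.0306). The first was lost only without irisin HFD library 3 (adjusted p = 0.0511) among the 12 fits with 1 library left out. The second was called in 5 of 12 and was lost without GFP HFD library 2, irisin HFD library 3, irisin chow library 1 or 3 or any GFP chow library, with changes between -0.92 and -0.65. Without the 4 mixed libraries the 2 values were -0.86 (adjusted p = 0.0196) and -0.65 (adjusted p = 0.0761). With the muscle score as a covariate neither was called, at -0.89 (adjusted p = 0.363) and -0.80 (adjusted p = 0.0582). Over all genes that fit called 0 of 16125 with irisin, against 1453 in the reported fit, and 205 with GFP, against 382. The GFP call was also lost with no filter (adjusted p = 0.0562) and with only the groups compared (adjusted p = 0.127). In that last fit 0 of 14847 genes were called, against 382 in the reported fit.

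The bases before the start of Ckb and Gatm are shown because, with Slc6a8, their diet effects were called as different between depots. Those of Ckmt2 are shown because its reads were highest in the libraries with the most muscle RNA. The RefSeq promoter table (build GRCm38.p6) held 7 of the 9 members, all but Slc6a8 and Atp2a2, and the positions of all 9 genes in the deposited table were those of GENCODE M21 on GRCm38. Capitals mark matches, on either strand, to the CCAAT box (its letters are CCAAT), the TATA box (searched as TATAAA), the MEF2 core (CTA, any 4 bases, then TAG) or the MyoD E-box (searched as CAGCTG). Each run gives the 250 bases before the RefSeq start, 5′ to 3′ on the gene's strand.

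Ckb, chr12:111672339-111672588, minus strand: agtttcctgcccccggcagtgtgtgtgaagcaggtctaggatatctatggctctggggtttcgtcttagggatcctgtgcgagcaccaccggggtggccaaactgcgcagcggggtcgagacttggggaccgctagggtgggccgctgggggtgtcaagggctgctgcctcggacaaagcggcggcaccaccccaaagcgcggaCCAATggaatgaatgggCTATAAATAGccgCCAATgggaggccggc
Gatm, chr2:122611278-122611527, minus strand: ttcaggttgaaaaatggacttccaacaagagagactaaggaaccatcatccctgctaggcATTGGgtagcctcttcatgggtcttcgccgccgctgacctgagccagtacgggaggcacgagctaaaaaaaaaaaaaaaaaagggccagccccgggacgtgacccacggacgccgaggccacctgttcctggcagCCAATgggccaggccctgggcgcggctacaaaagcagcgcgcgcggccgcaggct
Ckmt2, chr13:91876886-91877135, minus strand: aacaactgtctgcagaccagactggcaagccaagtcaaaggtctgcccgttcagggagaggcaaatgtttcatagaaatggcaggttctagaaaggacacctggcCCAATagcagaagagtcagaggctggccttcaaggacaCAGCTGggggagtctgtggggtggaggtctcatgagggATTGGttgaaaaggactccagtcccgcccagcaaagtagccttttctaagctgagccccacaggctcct

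Ckb carries a CCAAT box 46 and another 16 bases before the start and a TATA box 28 bases before it that lies inside a MEF2 core match. Of 32851 mouse windows of this length, 33.85% hold the CCAAT box, 12.4% the TATA box, 3.20% the MEF2 core and 13.0% the MyoD E-box on either strand. Gatm has a CCAAT box 55 bases before its start and another on the opposite strand 190 bases before it, and no match to the TATA box or the MEF2 core. Ckmt2 holds a MyoD E-box 107 bases before its start and 1 CCAAT box on each strand. The cAMP response element (searched as TGACGTCA), the ERR element (searched as TCAAGGTCA) and the PPAR element (AGGTCA, any 1 base, AGGTCA), held by 1.55%, 0.387% and 0.0335% of windows, were in none of the 9 windows of members. These matches are letters in a window and were not tested as sites.

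Ckmt1, the gene of the ubiquitous mitochondrial creatine kinase, lies at chr2:121357714-121363737 on the plus strand. It was almost absent from iWAT, with 0 to 4 reads in each library there (at most 0.0893 FPKM). In eWAT on HFD it had 0.373, 0.403 and 0.0256 FPKM with irisin and 0.244, 0.305 and 0.179 FPKM with GFP. In eWAT on chow it had 2.45, 0.606 and 0.232 FPKM with irisin and 1.06, 1.42 and 0.982 FPKM with GFP. The GFP chow libraries were above the GFP HFD libraries, and the irisin groups overlapped. The diet change in eWAT GFP fat was -1.15 ± 0.43 (limma adjusted p = 0.0690) and was not called; it passed without eWAT irisin chow library 1 or 3 (lowest adjusted p = 0.0131) and with only the groups compared (adjusted p = 0.00509). On chow Ckmt1 was lower in iWAT than in eWAT by -1.37 ± 0.33 with irisin (limma adjusted p = 0.0173) and by -1.65 ± 0.33 with GFP (limma adjusted p = 0.00413). A fit on recovered reads, which adds part of a read to each count, put these at -4.77 ± 1.24 (voom adjusted p = 0.0292) and -5.02 ± 1.12 (voom adjusted p = 0.0101). With 0 or 1 reads in each iWAT chow library, the size of these values depends on that addition. Ckmt1 met the filter of that fit, 10 reads in 3 libraries, through eWAT alone, so there too the difference was in part fixed by the filter. The irisin call was lost without eWAT irisin chow library 1, whose 102 reads were the highest, or any iWAT irisin chow library, and also without the 4 mixed libraries (adjusted p = 0.0919) and with the muscle score (-1.32, adjusted p = 0.515). The muscle score left 148 of 17687 genes called in this comparison, against 765 in the reported fit. The 7 mesothelial markers moved with it: they summed to 21.9 to 203 FPKM in eWAT irisin HFD, 81.9 to 98.0 in eWAT GFP HFD, 249 to 410 in eWAT irisin chow, 327 to 433 in eWAT GFP chow and 0.261 to 3.84 in iWAT, and their part in the Ckmt1 levels was not tested.

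Ckmt2, which encodes the sarcomeric mitochondrial creatine kinase of muscle and heart and is expressed in brown fat, lies at chr13:91853387-91876885 on the minus strand. It had 0.277, 2.22 and 38.6 FPKM in the 3 iWAT irisin chow libraries, from 6, 54 and 907 reads. In the other 21 libraries it had at most 0.205 FPKM and at most 6 reads, and 9 of them were at 0. Its order within iWAT irisin chow was that of the muscle marker sum and of Ckm, and Ckmt2 stood at 0.0574, 0.129 and 0.138 of the Ckm FPKM in those 3 libraries. Ckmt2 met neither the FPKM filter nor the read filter, and its values in the fit with no filter are not given here. The other 21 libraries also held some muscle reads, with up to 60 of Ckm in 1 iWAT irisin HFD library, and the part of muscle RNA in the Ckmt2 levels was not tested.

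Summed over Ckb, Ckm, Ckmt1 and Ckmt2, the creatine kinase genes made 35.2, 44.1 and 346 FPKM in the iWAT irisin chow libraries. Ckb was 85.4%, 55.8% and 8.20% of that sum there, and 91.8% to 99.98% in the other 21 libraries, with a median of 99.4%. Ckm held 80.7% of the sum in irisin chow library 3. Ckmt1 held up to 7.85%, in eWAT irisin chow library 1. Ckb itself lay between 24.6 and 30.0 FPKM in a group whose total creatine kinase FPKM spanned 35.2 to 346.

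**Figure D2:**
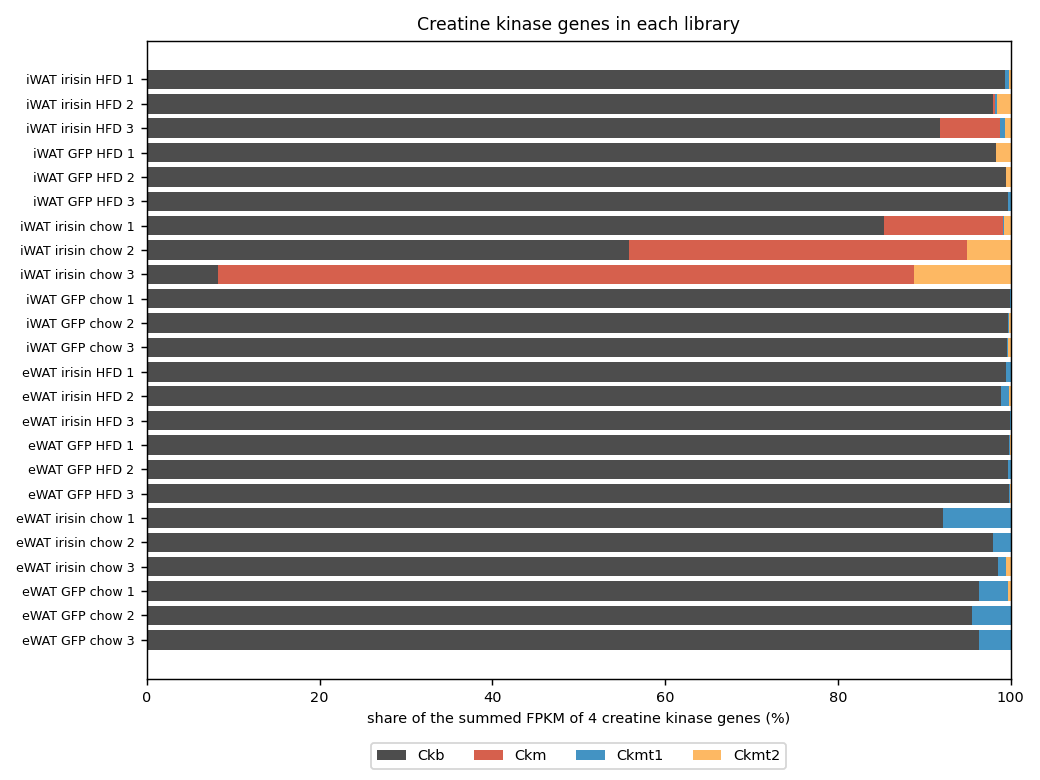
Share of the summed FPKM of Ckb, Ckm, Ckmt1 and Ckmt2 (x axis, percent) in each of the 24 libraries (rows). Ckb holds at least 91.8% of the sum outside iWAT irisin chow and 85.4%, 55.8% and 8.20% in the 3 libraries of that group, where Ckm takes up to 80.7%.

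Alpl encodes tissue-nonspecific alkaline phosphatase, known from bone mineralization and, in mouse thermogenic fat, from the hydrolysis of phosphocreatine. It lies at chr4:137741733-137796384 on the minus strand. It was low in all groups, between 0.536 and 2.73 FPKM. In iWAT it averaged 1.99 ± 1.01 FPKM in irisin HFD, 1.45 ± 0.446 in GFP HFD, 1.52 ± 0.804 in irisin chow and 0.966 ± 0.393 in GFP chow (SD, n = 3 each). In eWAT it averaged 1.42 ± 0.641 FPKM in irisin HFD, 0.760 ± 0.0835 in GFP HFD, 0.892 ± 0.220 in irisin chow and 1.04 ± 0.60 in GFP chow. It passed no test, and its unadjusted p was lowest, 0.0840, for irisin against GFP in eWAT on HFD (0.56 ± 0.29). Libraries of the same group lay far apart, as in iWAT irisin chow, with 1.97, 0.589 and 1.99 FPKM.

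Atp2a2 encodes SERCA2, the calcium pump of the reticulum whose isoform b is the common form outside muscle. It lies at chr5:122453513-122502225 on the minus strand. Its 24 values lay between 31.4 FPKM in eWAT irisin chow library 3 and 44.9 FPKM in iWAT irisin HFD library 1, a 1.43-fold span with a median of 36.3 FPKM. The group means were 39.5 ± 4.7, 37.1 ± 4.5, 36.6 ± 2.2 and 34.8 ± 1.5 FPKM in iWAT irisin HFD, GFP HFD, irisin chow and GFP chow (SD, n = 3 each). In eWAT they were 35.5 ± 3.4, 38.8 ± 2.2, 33.7 ± 2.5 and 36.6 ± 3.7 FPKM in the same order. The 4 diet effects were 0.10 ± 0.13 in iWAT irisin, 0.09 ± 0.13 in iWAT GFP, 0.07 ± 0.11 in eWAT irisin and 0.09 ± 0.11 in eWAT GFP fat. In the muscle-rich iWAT irisin chow library 3 Atp2a2 had 36.2 FPKM, while Atp2a1, the gene of the fast-muscle pump SERCA1, reached 435 FPKM.

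Ryr2, the gene of the calcium release channel best known from heart and neurons, lies at chr13:11553102-12106945 on the minus strand. With a counted length of 28790 bases it gathers many reads at a low FPKM, so its reads are given. In iWAT on HFD it had 202, 399 and 193 reads with irisin and 229, 340 and 178 reads with GFP. In iWAT on chow it had 34, 12 and 25 reads with irisin and 16, 24 and 31 reads with GFP. In eWAT on HFD it had 123, 164 and 126 reads with irisin and 96, 164 and 139 reads with GFP. In eWAT on chow it had 1, 0 and 3 reads with irisin and 5, 3 and 9 reads with GFP. No HFD library overlapped with a chow library in either depot. Scaled by depth, the HFD reads were 10.5 times the chow reads in iWAT irisin (95% counting interval 8.25 to 13.6, Clopper-Pearson) and 9.99 times in iWAT GFP (7.82 to 12.9). In eWAT they were 107 times as many with irisin (41.5 to 395, resting on 4 chow reads) and 20.9 times with GFP (12.9 to 36.2). These intervals cover counting error only. In FPKM the means were 0.597 ± 0.382 and 0.498 ± 0.231 on HFD against 0.0538 ± 0.0278 and 0.0489 ± 0.0182 on chow in iWAT irisin and GFP fat. In eWAT they were 0.303 ± 0.096 and 0.269 ± 0.065 on HFD against 0.00293 ± 0.00344 and 0.0126 ± 0.0057 on chow, again for irisin and GFP (SD, n = 3 each).

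Since the FPKM filter left Ryr2 out, it was tested on the recovered reads with limma's voom, among genes with at least 10 reads in at least 3 libraries, a fit added after the levels had been seen. Ryr2 rose with HFD by 3.38 ± 0.67 in iWAT irisin (adjusted p = 0.0169, beside 8.35% of all genes called in this fit) and by 3.28 ± 0.66 in iWAT GFP (adjusted p = 0.0323, beside 2.23%). In eWAT it rose by 6.66 ± 0.84 with irisin (adjusted p = 0.00144, beside 18.2%) and by 4.33 ± 0.60 with GFP (adjusted p = 0.00117, beside 27.2%). In eWAT no chow library reached 10 reads, so Ryr2 met the filter through the HFD libraries alone and its eWAT differences were in part fixed by the filter. In iWAT the irisin call was lost without irisin chow library 2 or 3 and the GFP call without GFP HFD library 2 or GFP chow library 1 or 2, with changes between 2.91 and 3.73. Without the 4 mixed libraries the iWAT calls were lost at nearly the same size, 3.48 (adjusted p = 0.0508) and 3.38 (adjusted p = 0.0659). Without a filter on the log2(FPKM + 0.5) scale the iWAT changes were 0.93 (adjusted p = 0.0581) and 0.84 (adjusted p = 0.146) and the eWAT changes 0.67 (adjusted p = 0.00549) and 0.58 (adjusted p = 0.00546). With a macrophage score as a covariate the read-based changes in iWAT were 3.05 with irisin (adjusted p = 0.0479) and 3.21 with GFP (adjusted p = 0.0234). In eWAT they were 7.45 with irisin (adjusted p = 0.00441) and 5.39 with GFP (adjusted p = 0.0514). Ryr2 was at 34, 12 and 25 reads in the muscle-bearing libraries, in an order other than that of muscle RNA. A pseudogene and 2 unclassified gene models overlap it, at 0.164 FPKM or less, and whether the counting used strand is not stated.

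**Figure D3:**
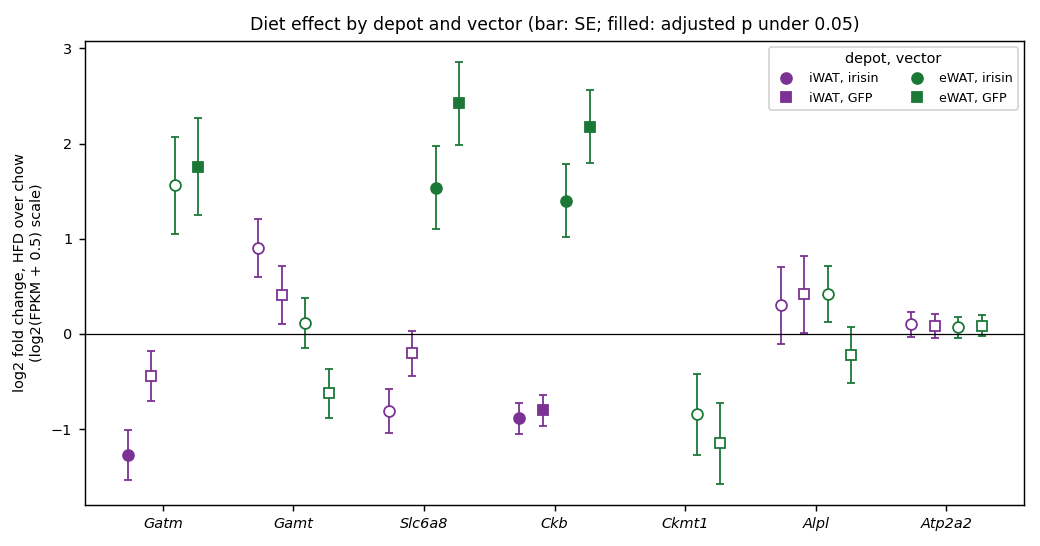
Log2 fold change of HFD over chow on the log2(FPKM + 0.5) scale (y axis) for the 7 members with a test (x axis), iWAT in purple and eWAT in green, irisin as circles and GFP as squares, with SE bars and filled symbols where the adjusted p was under 0.05. Ckb lies at -0.88 and -0.80 in iWAT and at 1.40 and 2.18 in eWAT, Slc6a8 at up to 2.42 in eWAT, and Atp2a2 between 0.07 and 0.10.

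The difference in the diet effect between the 2 depots was tested in 1 fit of all 24 libraries. That fit treats the depots as independent, though the labels do not say whether they came from the same mice. The difference (iWAT diet effect minus eWAT diet effect) was -2.29 ± 0.44 for Ckb, -2.35 ± 0.52 for Slc6a8 and -2.83 ± 0.60 for Gatm with irisin, and -2.98 ± 0.44, -2.63 ± 0.52 and -2.20 ± 0.60 with GFP. The differences share their libraries with the diet comparisons above. Those 3 genes were called with either vector, 3 of 7 members tested beside 3.73% of all genes with irisin and 4.31% with GFP. Their adjusted p-values were 0.0170, 0.0250 and 0.0222 with irisin and 0.00258, 0.00952 and 0.0445 with GFP, in the order Ckb, Slc6a8, Gatm. Ckb kept its call in 24 of 24 fits with 1 library left out for either vector, and Slc6a8 did so for GFP. With irisin Slc6a8 was lost without iWAT irisin HFD 2 or 3, iWAT irisin chow 2, eWAT irisin HFD 1 or 3 or any eWAT irisin chow library, and Gatm without iWAT irisin HFD 2 or 3, eWAT irisin HFD 1 or 3 or eWAT irisin chow 1 or 2. Gatm with GFP was called in only 8 of 24, being lost without iWAT GFP HFD 2 or 3, iWAT irisin HFD 3, iWAT irisin chow 1 or 3, eWAT GFP chow 2 or 3 or any library of iWAT GFP chow, eWAT GFP HFD or eWAT irisin chow. Without the 4 mixed libraries Slc6a8 was lost at -2.30 with irisin (adjusted p = 0.0548) and at -2.51 with GFP (adjusted p = 0.0622), while Ckb and Gatm were called. With the macrophage score none of the 6 differences was called, and with the muscle score none of the 3 of irisin was, at -2.30 for Ckb (adjusted p = 0.218), -2.23 for Slc6a8 (adjusted p = 0.256) and -2.62 for Gatm (adjusted p = 0.249). For irisin the muscle score left 4 of 17687 genes called, against 659 in the reported fit. Slc6a8 with irisin was also lost with only the groups compared (adjusted p = 0.0683), and Gatm with GFP with no filter (adjusted p = 0.0885), in the read-based fit (adjusted p = 0.0636) and with the muscle score (adjusted p = 0.0553). Ckmt1 and Gamt differed by 1.12 ± 0.46 (limma adjusted p = 0.194) and 1.03 ± 0.42 (limma adjusted p = 0.184) with GFP and were not called, except without eWAT irisin chow library 1 (adjusted p = 0.0381) or with only the groups compared for Ckmt1 (adjusted p = 0.0358) and without iWAT GFP HFD library 1 for Gamt (adjusted p = 0.0454).

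Between depots on HFD, which uses the same HFD libraries, Ckb was lower in iWAT than in eWAT by -2.28 ± 0.31 with irisin (limma adjusted p = 0.000272) and by -3.09 ± 0.31 with GFP (limma adjusted p = 7.64e-06). Slc6a8 was lower in iWAT by -1.82 ± 0.37 with irisin (adjusted p = 0.00463) and by -2.65 ± 0.37 with GFP (adjusted p = 0.000123). Gatm was lower in iWAT by -1.76 ± 0.43 with GFP (adjusted p = 0.00873), and its difference of -1.05 ± 0.43 with irisin was not called (adjusted p = 0.127) except without eWAT irisin HFD library 2 (adjusted p = 0.00595). These made 2 of 7 members called with irisin, beside 10.3% of all genes, and 3 of 7 with GFP, beside 15.2%. Each of the 5 calls held in 24 of 24 fits with 1 library left out. The 2 of irisin were lost in a fit of only the groups compared, where the adjusted p was 0.0943 for Ckb and 0.161 for Slc6a8. That smaller fit called only 28 of 14654 genes, against 1819 in the reported fit. With the macrophage score only Ckb with GFP was called, and Slc6a8 was at -0.62 with irisin and -1.27 with GFP and Gatm at -0.72 with GFP. On chow Ckb and Slc6a8 did not differ detectably between depots, with Ckb at 0.00 with irisin and -0.11 with GFP and Slc6a8 at 0.52 and -0.02. On chow the members called were Ckmt1, Gamt and Gatm with irisin, 3 of 7 beside 4.33% of all genes, and Ckmt1 with GFP, 1 of 7 beside 4.63%. Gatm was there higher in iWAT irisin chow than in eWAT irisin chow by 1.78 ± 0.43 (limma adjusted p = 0.0172), a call lost without iWAT irisin chow 1 or 3 or eWAT irisin chow 1 or 2, without the 4 mixed libraries (1.65, adjusted p = 0.0516) and with the muscle score as a covariate (1.57, adjusted p = 0.613). The muscle score left 148 of 17687 genes called in this comparison, against 765 in the reported fit.

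Irisin against GFP called 0 of 6 members in iWAT and 0 of 7 in eWAT, on HFD and on chow, beside 0% of all genes in each of these 4 comparisons. The vector by diet interaction called 0 of 6 members in iWAT, beside 0% of all genes, and 0 of 7 in eWAT, beside 0.00614%, which is 1 gene. At an unadjusted p under 0.05 limma found 0 members in iWAT HFD, 1 in iWAT chow, 1 in eWAT HFD, 0 in eWAT chow, 1 in the iWAT interaction and 0 in the eWAT interaction, and the read-based voom fit also called 0 members in all 6. In that fit Ryr2 differed between irisin and GFP in eWAT chow by -2.21 ± 0.99 (voom adjusted p = 0.923), on 4 against 17 reads.

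In eWAT macrophage markers were high in the HFD libraries in which Ckb, Slc6a8 and Gatm were high. In eWAT irisin HFD library 2, Adgre1 (the F4/80 gene of macrophages) had 32.3 FPKM, against 115 and 145 FPKM in libraries 1 and 3, and the same library was the lowest of its group for Ckb (38.5 FPKM), Slc6a8 (7.40 FPKM) and Gatm (2.75 FPKM) and the highest for Gamt (67.01 FPKM) and for the summed adipocyte markers (12689 FPKM). Adgre1 had 169, 179 and 123 FPKM in eWAT GFP HFD and 14.8 to 24.3 FPKM in eWAT chow. In eWAT HFD the adipocyte sums were 5747 to 12689 FPKM with irisin and 4769 to 5679 FPKM with GFP, against 8626 to 9431 FPKM in irisin chow and 7481 to 9530 FPKM in GFP chow. With the macrophage score of each library as a covariate, an alternative added after the levels had been seen, no member was called for diet in eWAT. Few genes of any kind were called there, 291 of 16274 with irisin and 4 with GFP, against 2831 and 4310 in the reported fit. The loss of the calls is therefore not particular to the members. With the score the eWAT diet effects were -0.08 ± 0.46 for Ckb, -0.35 ± 0.40 for Slc6a8 and -0.31 ± 0.65 for Gatm with irisin. With GFP they were 0.14 ± 0.58, -0.17 ± 0.51 and -0.81 ± 0.82. In eWAT the macrophage sums of HFD and chow overlapped through irisin HFD library 2 alone, at 1070 FPKM against 786 to 1298 FPKM on chow. In iWAT irisin fat the macrophage sum, like Ckb, Slc6a8 and Gatm, was lower on HFD than on chow, at 231 to 655 against 1176 to 1703 FPKM. In iWAT GFP fat the sums of the diets overlapped, at 416 to 784 and 206 to 1380 FPKM. Within groups the order could differ. In eWAT, GFP HFD library 2 had the highest Adgre1 of its group (179 FPKM) and the lowest Ckb (95.7 FPKM) and Slc6a8 (27.9 FPKM). GFP HFD library 3 had the lowest Adgre1 (123 FPKM) and the lowest Gatm (8.57 FPKM). In iWAT, GFP chow library 3 had the lowest macrophage sum of its group (206 FPKM) and the highest Ckb (28.6 FPKM). Irisin chow library 2 had the highest sum of its group (1703 FPKM) and the lowest Gatm (5.10 FPKM) and Ckb (24.6 FPKM). With the macrophage score the change of Ckb in iWAT was -0.88 ± 0.20 with irisin (adjusted p = 0.0346) and -0.80 ± 0.17 with GFP (adjusted p = 0.0255). Over all genes 903 and 887 of 16125 were called there. The depot difference of Ckb on HFD was -1.68 with irisin (adjusted p = 0.107) and -2.40 with GFP (adjusted p = 0.0272) with that score.

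**Figure D4:**
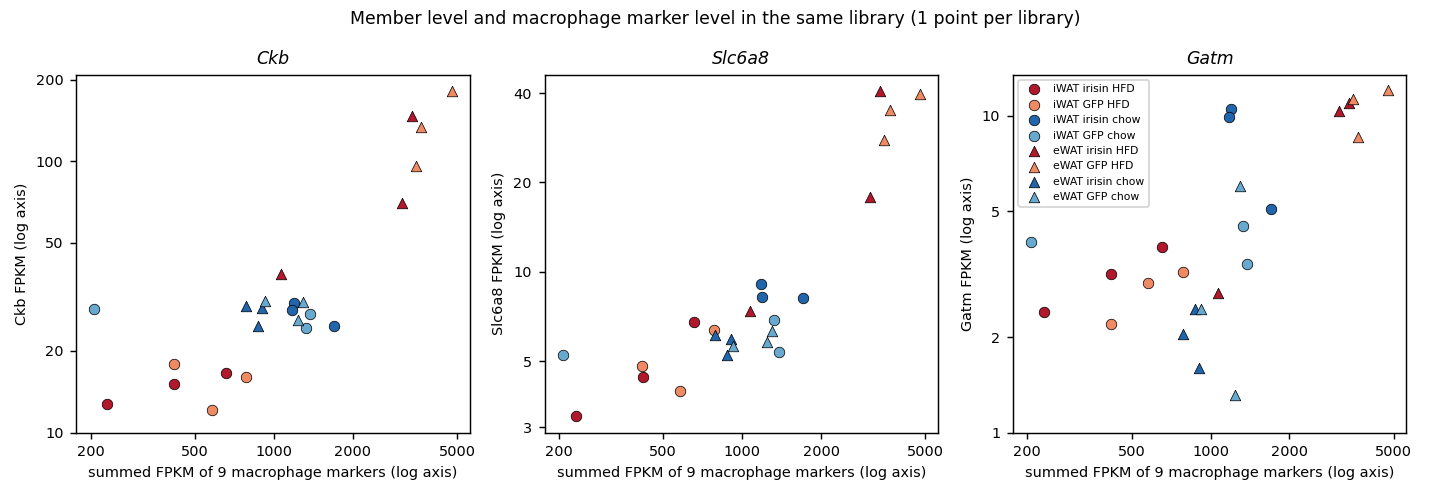
FPKM of Ckb, Slc6a8 and Gatm (y axis, log) against the summed FPKM of 9 macrophage markers (x axis, log), 1 point per library; circles are iWAT, triangles eWAT. The eWAT HFD libraries with sums of 3087 FPKM or more hold the highest Ckb and Slc6a8, and eWAT irisin HFD library 2, at 1070 FPKM, lies beside the chow libraries.

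Across the 24 libraries, log2(FPKM + 0.5) of Ckb and Slc6a8 had a Pearson correlation of 0.953, Gatm and Slc6a8 of 0.789 and Ckb and Gatm of 0.694. These are descriptions, since the libraries share depots, diets and tissue makeup. Out of 11537 genes that code for protein and average 1 FPKM or more, the patterns most like Ckb were Igf2bp2 (0.978), Syngr1 (0.967) and Card19 (0.962), and those most like Slc6a8 were Ctsa (0.984), Mfsd12 (0.978) and Cd9 (0.978). Gatm was most like Tpbgl (0.935), Pcp4l1 (0.886) and Homer3 (0.863), and Gamt most like Fkbp1a (0.940), Psat1 (0.932) and Rtl8b (0.926). Ckmt1 was most like AI661453 (0.906), Gprc5a (0.878) and Crb2 (0.875). Ckmt2 was most like Myot (0.991), Myh1 (0.981) and Mybpc1 (0.979), all known as genes of striated muscle. Ryr2 was most like Arhgef37 (0.924), Epg5 (0.906) and Hipk2 (0.906). Alpl (Ece1 0.765, Egflam 0.758, Apold1 0.728) and Atp2a2 (Plbd2 0.691, Arsb 0.689, Lrrc59 0.687) had no partner above 0.8.

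Of 9 other creatine genes, 8 were tested in iWAT and 7 in eWAT. In iWAT irisin fat HFD called 1 higher and 1 lower: Slc16a12, a monocarboxylate transporter family member known to carry creatine, rose by 2.04 ± 0.47 (limma adjusted p = 0.0256), and the muscle gene Ckm fell by 5.30 ± 1.08 (adjusted p = 0.0168). Slc16a12 averaged 15.9 FPKM in iWAT irisin HFD against 3.45 FPKM in iWAT irisin chow, and 18.5 FPKM in iWAT GFP HFD against 5.004 FPKM in iWAT GFP chow, where limma called 0 of 8 list genes (3 at an unadjusted p under 0.05, 0 in the read-based fit). In eWAT irisin fat HFD called Arg1 higher (1.12 ± 0.33, adjusted p = 0.0397) and Mat2a lower (-0.49 ± 0.11, adjusted p = 0.0147), of arginine breakdown and methyl donor supply. In eWAT GFP fat it called Oat, of ornithine metabolism, lower (-0.63 ± 0.15, adjusted p = 0.00961). The median change of the tested list was -0.23 and 0.14 in iWAT and -0.36 and -0.15 in eWAT (irisin before GFP), beside -0.02, 0.00, 0.00 and 0.00 over all genes. The share of all genes called in these comparisons was 9.01%, 2.37%, 17.4% and 26.5%.

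Of 38 other calcium cycling genes, 37 were in the table, and 31 were tested in iWAT and 29 in eWAT. With HFD 6 rose and 2 fell in iWAT irisin fat, 2 rose and 0 fell in iWAT GFP fat, 10 rose and 1 fell in eWAT irisin fat and 9 rose and 2 fell in eWAT GFP fat, beside 9.01%, 2.37%, 17.4% and 26.5% of all genes called in these comparisons. The medians of the tested list were -0.12, 0.19, 0.27 and 0.23 in the same order, against the same near-0 medians over all genes. In iWAT Atp2a3, the gene of SERCA3, rose by 2.14 ± 0.38 with irisin (adjusted p = 0.0103) and 2.38 ± 0.38 with GFP (adjusted p = 0.0143), with 41.2 to 44.9 FPKM in irisin HFD and 31.2 to 64.3 in GFP HFD against 4.91 to 13.8 in irisin chow and 5.12 to 11.4 in GFP chow. On HFD in iWAT its mean was 42.8 FPKM with irisin and 45.0 FPKM with GFP, beside 39.5 and 37.1 FPKM for Atp2a2. Itpr1, an inositol trisphosphate receptor that releases calcium from the reticulum, rose in iWAT by 0.91 ± 0.15 with irisin (adjusted p = 0.00863) and 0.96 ± 0.15 with GFP (adjusted p = 0.0143). In iWAT irisin fat Orai3, a store-operated channel gene, fell by 0.86 ± 0.14 (adjusted p = 0.00818), and Atp2a1, highest in the muscle-bearing libraries, fell by 6.004 ± 1.03 (adjusted p = 0.00891). In eWAT Trdn, the triadin gene of the calcium release complex, rose by 1.95 ± 0.30 with irisin (adjusted p = 0.00312) and 1.496 ± 0.30 with GFP (adjusted p = 0.00492), and Stim2, a calcium sensor of the reticulum, by 0.71 ± 0.13 (adjusted p = 0.00637) and 0.66 ± 0.13 (adjusted p = 0.00442). Srl (1.13 ± 0.20, adjusted p = 0.00518) and Jph1 (1.15 ± 0.20, adjusted p = 0.00589) rose with irisin, and the plasma membrane pump gene Atp2b4 fell (-1.31 ± 0.25, adjusted p = 0.00390) and Atp2b1 rose (0.89 ± 0.17, adjusted p = 0.00456) with GFP.

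Ucp1 itself was near 0: it had at most 0.787 FPKM, from 22 reads, in any library, with 0.183 to 0.409 FPKM in iWAT irisin HFD, 0.0651 to 0.670 in iWAT GFP HFD, 0 to 0.0386 in iWAT irisin chow and 0 to 0.108 in iWAT GFP chow. Of 21 thermogenic and beige genes in the table, 19 were tested in iWAT and 18 in eWAT. With HFD 5 rose and 2 fell in iWAT irisin fat, 0 rose and 2 fell in iWAT GFP fat, 6 rose and 2 fell in eWAT irisin fat and 4 rose and 2 fell in eWAT GFP fat, beside the same 9.01%, 2.37%, 17.4% and 26.5% of all genes, with medians of 0.64, 0.14, 0.20 and 0.24 over the tested list. Adrb3, the receptor gene that couples noradrenaline to heat production in mouse fat, fell in all 4 diet comparisons, by 1.93 ± 0.53 in iWAT irisin (adjusted p = 0.0458), 2.58 ± 0.53 in iWAT GFP (adjusted p = 0.0321), 3.03 ± 0.58 in eWAT irisin (adjusted p = 0.00773) and 3.91 ± 0.58 in eWAT GFP fat (adjusted p = 0.00156). Ebf2, a beige progenitor factor, fell by 1.16 ± 0.21, 1.55 ± 0.21, 1.28 ± 0.16 and 1.13 ± 0.16 in the same order (adjusted p = 0.0111, 0.0118, 0.00151 and 0.00132). Otop1, a proton channel gene of brown fat, rose in 3, by 2.86 ± 0.47 in iWAT irisin (adjusted p = 0.00741), 3.08 ± 0.33 in eWAT irisin (adjusted p = 0.000892) and 3.51 ± 0.33 in eWAT GFP fat (adjusted p = 0.000357). Esrrg rose in iWAT irisin fat by 1.48 ± 0.28 (adjusted p = 0.0124), and Adra1a by 1.35 ± 0.22 in iWAT irisin (adjusted p = 0.00837) and 1.19 ± 0.23 in eWAT irisin fat (adjusted p = 0.00861), and Fgf21 by 1.19 ± 0.22 in eWAT GFP fat (adjusted p = 0.00356). Irisin against GFP called 0 genes of the creatine, calcium and thermogenic lists in either depot on either diet, with 0 to 2, 0 to 5 and 0 to 3 genes at an unadjusted p under 0.05 in limma and 0 called in the read-based fit.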

How the data were processed

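Poly(A) RNA libraries of inguinal and epididymal fat were sequenced, per the labels' protocols. The authors deposited FPKM per gene for each library; HISAT2 2.0.5 and featureCounts 1.5.0-p3 are the tools named, per the submitters' processing notes. The genome build and strand setting are not given in the sources used here. Another 8 columns of the deposited table equalled group means and were not used.

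The 24 libraries were grouped by their labels. FPKM were analysed as log2(FPKM + 0.5) with limma 3.58.1 (R 4.3.3; trended variance, Benjamini-Hochberg adjustment, called under 0.05), keeping genes that reached 0.5 FPKM in 3 or more libraries: 16125 in iWAT, 16274 in eWAT and 17687 in the fit of both depots. Each depot was fitted with its 4 groups and the depot contrasts with all 8, giving 16 comparisons. FPKM came in whole multiples of the value of 1 read, so reads were recovered (100% of values whole within 0.01) and used in limma's voom fits. Depth was 14145644 to 19726771 reads, with a median of 16409570. The fits were checked on simulated data with known answers. The simulated reads had the same spread setting for every gene and group, unlike the real libraries. Only genes averaging 1 FPKM or more were changed, and only GFP comparisons were simulated. Under these settings the fits recovered 94% to 99% of 4-fold changes but only 24% to 36% of 2-fold changes, so a 2-fold change can easily go uncalled. The rates do not apply to genes with a wider spread or a lower level. Of the simulated calls 1.61% to 5.59% were false. Python 3.11.15 with SciPy 1.17.1 gave the counting intervals.

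The 9 genes and all lists were chosen with earlier results of these data known. All 9 are described; a fold change is printed where a gene was called or had an unadjusted p under 0.05, and otherwise levels, ranges or plain effects. From each pathway list up to 4 called genes with the lowest p are named (Adrb3 in iWAT irisin fat was added after its value was seen), and the 3 genes of most similar pattern per member. Alternatives were other pseudocounts (1 and 0.1), filters, scalings, a replicate block, smaller fits, read-based fits, covariates and each library left out.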

Additional observations from a re-analysis of the deposited data

Results flagged for a closer look

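The effect of HFD differed between iWAT and eWAT for 3 of the genes, by a test of the difference itself (iWAT diet effect minus eWAT diet effect, limma over 24 libraries). With irisin the difference was -2.29 ± 0.44 for Ckb (adjusted p = 0.0170), -2.35 ± 0.52 for Slc6a8 (adjusted p = 0.0250) and -2.83 ± 0.60 for Gatm (adjusted p = 0.0222). With GFP it was -2.98 ± 0.44 for Ckb (adjusted p = 0.00258), -2.63 ± 0.52 for Slc6a8 (adjusted p = 0.00952) and -2.20 ± 0.60 for Gatm (adjusted p = 0.0445). Summed macrophage markers were 1070 to 4774 FPKM in eWAT HFD against 786 to 1298 FPKM in eWAT chow, and 231 to 784 FPKM in iWAT HFD against 206 to 1703 FPKM in iWAT chow. With the macrophage score as a covariate the irisin differences were -1.55, -0.87 and -1.72 and the GFP differences -2.36, -1.38 and -1.26 for Ckb, Slc6a8 and Gatm, and none was called. In the fit of eWAT alone that score left few diet calls over all genes, 291 of 16274 with irisin and 4 with GFP.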

How the results depend on the processing

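The number of members called moved by over 1.5 times in the cases below, and the cause was not tested. Several of these fits called few genes of any kind. The macrophage score gave 291 calls against 2831 for eWAT irisin diet and 4 against 4310 for eWAT GFP diet. The muscle score gave 0 against 1453 for iWAT irisin diet, 148 against 765 for depot irisin chow and 4 against 659 for depot by diet with irisin. With only the groups compared it was 0 against 382 for iWAT GFP diet, 1393 against 2831 for eWAT irisin diet and 28 against 1819 for depot irisin HFD. For HFD against chow in iWAT with GFP, 1 was called, but 0 with no filter on low values, with only the groups compared, without the 4 mixed libraries and with the muscle score as a covariate. In eWAT with irisin, 2 were called, but 1 with no filter, 0 with only the groups compared, 1 without the 4 libraries, 1 with the muscle score and 0 with the macrophage score. The 1 with no filter was Ryr2, untested in the reported fit, and the 1 without the 4 libraries was Gatm. Ckb and Slc6a8 were lost in both. In iWAT with irisin, 2 were called, but 1 without the 4 libraries, 0 with the muscle score and 1 with the macrophage score. In eWAT with GFP, 3 were called and 0 with the macrophage score. With no filter the count there stayed at 3, but Gatm was lost and Ryr2 gained. Between depots with irisin, 2 on HFD became 0 with only the groups compared and 0 with the macrophage score, and 3 on chow became 0 without the 4 libraries and 0 with the muscle score. Between depots with GFP on HFD, 3 became 1 with the macrophage score. The depot by diet calls became 0 with the muscle score or the macrophage score for irisin, and 0 with the macrophage score for GFP. Leaving out 1 library gave 0 to 4 members for iWAT irisin diet, 0 to 1 for iWAT GFP diet, 0 to 3 for eWAT irisin diet, 0 to 3 for depot irisin chow and 1 to 3 for depot by diet with irisin. Signs turned only with the macrophage score, in eWAT diet effects: Ckb -0.085, Slc6a8 -0.35 and Gatm -0.31 with irisin, and Slc6a8 -0.17, Gatm -0.81 and Gamt 0.76 with GFP. Of 434 gene effects under the other alternatives 369 stayed on their side of the threshold, 53 lost and 6 gained the call. The labels do not say whether same-numbered iWAT and eWAT libraries came from 1 mouse, and the reported fits treat them as independent. Correlations between same-numbered iWAT and eWAT libraries ran from -0.170 to 0.357. Over all 12 comparisons, which also pair different vectors or diets, they ran from -0.174 to 0.357. In 0 of the 12 were all of them over 0.1. With 3 libraries a group this cannot exclude shared mice. With the replicate block, Gamt between depots on irisin chow was lost (adjusted p = 0.0557), and the other gene calls were unchanged by it. Quantile scaling put the median of all genes at 0.09 for the iWAT vector by diet interaction, against -0.01 in the reported fit; it moved the median of each other comparison, and upper quartile scaling every median, by under 0.1. Depth limits Ckmt1 and Ckmt2, with under 10 reads in most libraries.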
